A study of Homo sapiens with 9 samples.

Results

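Small nucleolar RNAs (snoRNAs) guide the chemical modification of ribosomal RNA, and in human cells most of them are cut out of the introns of other genes, called hosts. The values below are for 32 protein-coding host genes that do not encode ribosomal proteins. They were taken from a list of symbols and matched to the assembled isoforms whose reference class code was = (all splice junctions of a reference transcript), j (at least one shared junction) or c (contained in a reference transcript). All 32 were found, each at 1 of the 22266 loci of the gene table, and all 32 were among the 12164 loci with a mean of at least 1 FPKM (fragments scaled to transcript length and library size). The list was drawn up with earlier results of these data known.

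The study depleted factors of mRNA decay from subline b-39 of HEK293 (Flp-In T-Rex), a human embryonic kidney line, and asked which RNAs are degraded by nonsense-mediated decay (NMD). In the first of the 4 RNA-seq groups siRNA against SMG6 was combined with siRNA against XRN1, in the second siRNA against UPF1 was combined with siRNA against XRN1, in the third XRN1 alone was targeted, and the control received siRNA against EGFP. All 4 carried a b-globin PTC39 reporter, which has a premature stop codon, at the Flp-In locus. RNA was taken from cytoplasm released with digitonin, selected for poly(A) tails and made into libraries with ScriptSeq v2. This selects for host mRNA, and whether processed snoRNAs remained was not tested. Each group was 1 library of 1 subline, so no difference between groups has a replicate check, no p-value is given, and the intervals below cover counting error only. A further 4 libraries of RNA 5′ ends and 1 CAGE library were not analysed here. In bulk libraries a lower amount of an RNA per cell and fewer cells that hold it cannot be told apart.

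NMD degrades mRNAs on which ribosomes stop well before the last exon junction. UPF1 is the helicase that the pathway depends on, SMG6 is an endonuclease that cuts the mRNA near the stop codon, and XRN1 is the 5′ to 3′ exonuclease that removes the fragments and decapped mRNAs. Hosts of snoRNAs come in a protein-coding and a non-coding kind. In the non-coding kind the spliced exons often carry short open reading frames and are known NMD substrates, whereas protein-coding hosts make both a snoRNA and a translated mRNA, and many are translation or ribosome assembly genes whose transcripts start with a run of pyrimidines (5′ terminal oligopyrimidine, TOP).

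The libraries held an estimated 31476860 to 35983050 reads. The mRNA of XRN1 was below the control by FPKM in UPF1/XRN1 and XRN1 only, that of SMG6 was above the control in every library, and that of UPF1 was lowest in UPF1/XRN1 among the 3 depleted libraries but above the control. XRN1 had 10.1 FPKM in SMG6/XRN1, 6.50 in UPF1/XRN1 and 7.31 in XRN1, against 7.80 in the control. SMG6 had 7.66 FPKM in SMG6/XRN1, 5.97 in UPF1/XRN1 and 5.55 in XRN1, against 4.77 in the control. UPF1 had 11.4 FPKM in SMG6/XRN1, 8.59 in UPF1/XRN1 and 11.6 in XRN1, against 6.71 in the control. By estimated reads UPF1 in UPF1/XRN1 was 0.636-fold the XRN1 library (95% counting interval 0.591 to 0.684), and XRN1 in XRN1 was 0.894-fold the control (0.834 to 0.958). Libraries are therefore named below by their labels, and protein levels are not in these data. Of 8 markers of the line, VIM (360 to 380 FPKM), KRT8, KRT18, NEFL and INA were above 10 FPKM in every library and NEFM, PAX2 and LHX1 below 1. Of 10 markers of other cell types, 5 were in the gene table, all below 1 FPKM.

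All 32 genes held at least 1 annotated snoRNA inside the gene body in GENCODE 29 (GRCh38), against 1.37% of 19969 protein-coding genes. Together they held 70 entries, of which 37 were box C/D snoRNAs (guides of 2′-O-methylation), 26 were box H/ACA snoRNAs (guides of pseudouridylation) and 7 had no family name. Hosts of box C/D entries only numbered 16, hosts of box H/ACA entries only 11, and 5 genes held both. The C box sequence TGATGA was found at any position in 27 of the 37 box C/D entries, against 77.3% of 278 such entries genome-wide. The D box sequence CTGA was found in 35, against 98.2%, also at any position on the strand of the snoRNA. In SNORD84 of DDX39B the TGATGA starts at base 44 of 78, away from the 5′ end. The snoRNAs of 5 hosts whose mRNA values are described below are shown with both boxes in capitals. SNORD126 lies in CCNB1IP1 at chr14:20326450-20326526 (minus strand), SNORD11 in NOP58 at chr2:202293051-202293134 (plus), SNORD45C in RABGGTB at chr1:75787072-75787150 (plus), SNORD89 in RNF149 at chr2:101272936-101273049 (minus) and SNORD51 in EEF1B2 at chr2:206161878-206161957 (plus), all in GRCh38.
SNORD126: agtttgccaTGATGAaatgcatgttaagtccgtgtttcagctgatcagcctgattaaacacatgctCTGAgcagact
SNORD11: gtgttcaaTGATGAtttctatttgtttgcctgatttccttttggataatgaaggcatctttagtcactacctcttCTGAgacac
SNORD45C: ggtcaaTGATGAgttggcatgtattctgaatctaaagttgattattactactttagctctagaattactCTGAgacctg
SNORD89: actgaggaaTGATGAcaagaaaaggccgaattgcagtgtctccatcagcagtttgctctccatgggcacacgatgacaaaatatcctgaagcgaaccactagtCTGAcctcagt
SNORD51: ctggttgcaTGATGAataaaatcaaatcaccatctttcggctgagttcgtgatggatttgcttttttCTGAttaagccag
In each, the C box stands near the 5′ end and the D box near the 3′ end. Of the 70 entries, 23 lay inside an annotated exon of some transcript of the host, as SNORD45C did in RABGGTB.

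The start of the host mRNA was read from the RefSeq promoter table (GRCh38.p14), which held 28 of the 32 genes. NOP58, SF3B3, ATP5B and CNOT1 were not matched. A TOP-like start, a C followed by at least 4 pyrimidines within 10 bases of the annotated start, was present in 14 of the 28, against 33.1% of 22199 protein-coding windows. Below, the 12 bases before the annotated start are in lower case and the first 12 of the transcript in capitals, for 4 genes with such a start and for CHD8, which had none.
GNB2L1: gggcttttctctCTCTCTTTCACT
RABGGTB: accctgctctctCCTTTCCCTGTT
CCNB1IP1: tctctccactttCTTTCCCTCTCC
EEF2: gacgtcagcgttCTCTTCCGCCGT
CHD8: ggcaggagcatcAGGTTAGGTTGC
The annotated start is not the start used in these cells, which was not measured here. The 14 hosts with a TOP-like start had a median log2 FPKM change of 0.08 in SMG6/XRN1 over control and 0.16 in UPF1/XRN1 over control, and the 14 without had 0.10 and 0.13.

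Most of the 32 host loci had similar levels in all 4 libraries, and few passed 2-fold. A change is the log2 ratio of FPKM with 1 added to both values, and a locus is called at 2-fold. In XRN1 over control none of the 32 was called higher or lower, against 4.11% higher and 0.37% lower of all loci tested, and their median was 0.17 beside 0.14 for all loci. In SMG6/XRN1 over control NOP58 and CHD8 were higher, 2 of 32 against 9.3% of all loci, with a median of 0.19 beside 0.25. In UPF1/XRN1 over control NOP58, CHD8, EP400 and RABGGTB were higher, 4 of 32 against 10.2%, with a median of 0.21 beside 0.15. None was lower in either, against 0.263% and 0.575% of all loci.

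Against the XRN1 library, which received the XRN1 siRNA alone, only CHD8 was called. It was the 1 of 32 called in SMG6/XRN1 over XRN1 (background 1.36% higher and 0.173% lower) and again in UPF1/XRN1 over XRN1 (background 2.52% higher and 0.534% lower). The medians of the 32 were 0.10 and 0.04, beside 0.12 and 0.02 for all loci. The comparisons share libraries, the control in 3 of them and XRN1 in 3, so their values are not independent.

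At a lower threshold of 1.5-fold more hosts were called. In XRN1 over control TOMM20 and NOP58 were higher (2 of 32, against 13.4% of all loci) and HSPA8 and SRCAP lower (2 of 32, against 1.71%). In SMG6/XRN1 over XRN1 EIF4A2, RABGGTB, CCNB1IP1 and CHD8 were higher (4 of 32, against 7.67%), and in UPF1/XRN1 over XRN1 NOP58, RABGGTB, EP400 and CHD8 (4 of 32, against 10%), with none lower in either (against 0.806% and 4.92%). Over the control 6 were higher in SMG6/XRN1 (against 24.5%) and none lower (against 1.32%), and in UPF1/XRN1 8 were higher (against 23%) and NCL was lower (against 4.5%). The genes added over the control by this threshold were EIF4A2, CCNB1IP1 and RNF149 in both co-depletions, RABGGTB in SMG6/XRN1 and CWF19L1 in UPF1/XRN1.

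**Figure D1:**
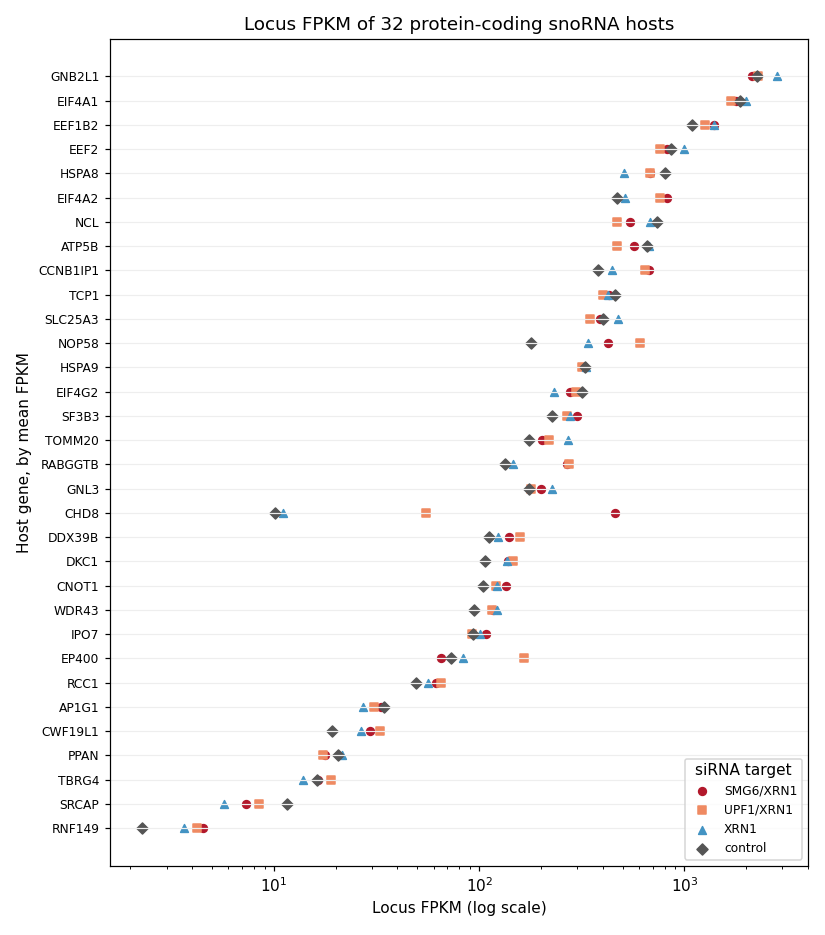
Locus FPKM (log scale) of the 32 host genes in the SMG6/XRN1, UPF1/XRN1, XRN1 and control libraries, 1 point per library, ordered by mean. Levels run from GNB2L1 (mean 2369 FPKM) to RNF149 (mean 3.67 FPKM), the 4 points of most genes lie close together, and CHD8 is at 459 FPKM in SMG6/XRN1 and 10.2 FPKM in the control.

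Levels per length differed widely between the host loci. The highest was GNB2L1 (also called RACK1, a scaffold protein of the small ribosomal subunit), with 2123 FPKM in SMG6/XRN1, 2276 in UPF1/XRN1, 2817 in XRN1 and 2259 in the control. The next were the translation factors EIF4A1, EEF1B2 and EEF2, with means of 1836, 1285 and 860 FPKM. The lowest were RNF149 and SRCAP, with means of 3.67 and 8.27 FPKM. Neighbours in this order often exchanged places between libraries. HSPA8, for instance, was at 683 FPKM in SMG6/XRN1, 682 in UPF1/XRN1, 509 in XRN1 and 805 in the control, and EIF4A2 at 824, 764, 513 and 470 in the same libraries, so EIF4A2 was above HSPA8 in 3 of the 4 and below it in the control.

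The 6 hosts that act in translation had a median log2 FPKM change of -0.06 in SMG6/XRN1 over control and -0.04 in UPF1/XRN1 over control, and none was called. The exception in size was EIF4A2, a paralog of the cap-binding complex helicase EIF4A1, at 824 FPKM in SMG6/XRN1, 764 in UPF1/XRN1 and 513 in XRN1, against 470 in the control. Both co-depletions lay above the XRN1 and control libraries, by 0.81 and 0.70 log2 over the control. EIF4A1 itself was at 1788, 1678, 2004 and 1875 FPKM in the same order, with no library apart, though only 64.7% of the signal of its locus came from its own isoforms. EEF1B2, the exchange factor subunit that reloads the elongation factor with GTP, had 1397 FPKM in SMG6/XRN1, 1262 in UPF1/XRN1 and 1398 in XRN1, against 1083 in the control. Its 3 depleted libraries lay together above the control, and the changes stayed within 0.37 log2.

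Among 6 nucleolar and ribosome assembly factors NOP58 was the highest in change and NCL the lowest. NOP58, a core protein of the box C/D snoRNA particle whose gene itself holds box C/D snoRNAs, had 424 FPKM in SMG6/XRN1, 611 in UPF1/XRN1 and 339 in XRN1, against 178 in the control. It stood above the control in all 3 depleted libraries and was highest in UPF1/XRN1, with log2 changes over the control of 1.24, 1.77 and 0.92. Centred on the median locus, the change in SMG6/XRN1 was 0.99, just under 2-fold. By isoform signal the same order held, with ratios to the control of 2.13 (95% counting interval 2.08 to 2.18), 2.89 (2.83 to 2.96) and 1.61 (1.57 to 1.65). Without the spike-in scaling its estimated reads were 20431, 31695 and 16233, against 10581 in the control, so SMG6/XRN1 was then just under 2-fold. NCL, or nucleolin, an abundant nucleolar RNA-binding protein, had 545 FPKM in SMG6/XRN1, 470 in UPF1/XRN1 and 680 in XRN1, against 737 in the control. It was lowest in both co-depletions, and the change of -0.65 log2 in UPF1/XRN1 over control did not reach 2-fold. DKC1, the pseudouridine synthase of box H/ACA particles, WDR43 and PPAN, both needed for ribosome assembly, and the nucleolar GTPase GNL3 had changes between -0.33 and 0.45 log2 in the 5 comparisons. The locus of PPAN also holds P2RY11, and 84.9% of its signal came from PPAN isoforms.

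The list of the 4 core proteins of the box C/D particle shares NOP58 with the hosts. Its other member to reach 2-fold was NOP56, another box C/D host, called in XRN1 over control (1.43 log2). FBL, the methyltransferase of the particle, had 426 FPKM in SMG6/XRN1, 334 in UPF1/XRN1 and 490 in XRN1, against 470 in the control. None of the 4 core proteins of the box H/ACA particle (DKC1, GAR1, NHP2 and NOP10) was called in any of the 5 comparisons, and NHP2 was lowest, at -0.85 log2 in UPF1/XRN1 over control. Of 12 assembly and trafficking factors only PIH1D1, a subunit of the R2TP chaperone complex, was called. It was higher in both co-depletions over the control (1.10 log2 in SMG6/XRN1, 1.42 in UPF1/XRN1) and in UPF1/XRN1 over XRN1 (1.26).

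The chaperones HSPA8, HSPA9 and TCP1 had medians of -0.10 log2 in SMG6/XRN1 over control and -0.19 in UPF1/XRN1 over control. HSPA8, the constitutive cytosolic HSP70, was lowest in the XRN1 library, and HSPA9, the mitochondrial HSP70, was flat at 316 to 331 FPKM in all 4. The locus of the stress-inducible paralogs HSPA1A and HSPA1B, near-identical copies that share 1 value here, was at 812 FPKM in SMG6/XRN1, 948 in UPF1/XRN1 and 417 in XRN1, against 319 in the control. The paralog locus was highest in both co-depletions, where HSPA8 lay below the control.

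The 4 hosts of mitochondrial function had changes between -0.51 and 0.63 log2 FPKM in the 5 comparisons. TOMM20, the import receptor of the outer membrane, had 201 FPKM in SMG6/XRN1, 218 in UPF1/XRN1 and 272 in XRN1, against 176 in the control, so XRN1 was the highest library. ATP5B, the beta subunit of ATP synthase, had 567, 471 and 673 FPKM in the 3 depleted libraries against 657 in the control and was lowest in UPF1/XRN1. SLC25A3, the phosphate carrier, had 389 FPKM in SMG6/XRN1, 347 in UPF1/XRN1 and 476 in XRN1, against 401 in the control. TBRG4, which acts on mitochondrial transcripts, stayed between 13.8 and 19.0 FPKM.

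The 4 hosts that act in splicing, export and mRNA decay were all above the control in both co-depletions, and none was called. Of all 12164 loci, 9163 were above the control in SMG6/XRN1 and 7564 in UPF1/XRN1, so this direction was the common one. SF3B3, a subunit of the U2 particle, had changes over the control of 0.40 log2 in SMG6/XRN1 and 0.24 in UPF1/XRN1, and CNOT1, the scaffold of the CCR4-NOT deadenylase, had 0.37 and 0.21. CWF19L1, a relative of a yeast splicing factor, had 29.2 FPKM in SMG6/XRN1, 32.9 in UPF1/XRN1 and 26.7 in XRN1, against 19.2 in the control. It was above the control in all 3, by 1.64-fold (95% counting interval 1.53 to 1.75), 1.84-fold (1.73 to 1.96) and 1.35-fold (1.26 to 1.44) in estimated reads. DDX39B, an export helicase, had 140 FPKM in SMG6/XRN1, 158 in UPF1/XRN1 and 124 in XRN1, against 112 in the control. That locus also holds ATP6V1G2 and a readthrough transcript with it, and the isoforms that carry the DDX39B symbol alone made up 5.71% of its signal. How much of the rest is DDX39B mRNA was not tested.

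The chromatin host CHD8 gave the largest FPKM changes over the control of any host in both co-depletions. In these comparisons the FPKM changes of CHD8, EP400 and SRCAP were not matched by reads. Those of RCC1, the remaining chromatin host, were similar by both measures. CHD8, a chromodomain remodeller, had 459 FPKM in SMG6/XRN1, 55.3 in UPF1/XRN1 and 11.04 in XRN1, against 10.2 in the control. The estimated reads of its isoforms, scaled to the spike-in, were only 1.34-fold the control in SMG6/XRN1 (95% counting interval 1.26 to 1.42). They were 1.21-fold in UPF1/XRN1 (1.14 to 1.28) and 1.07-fold in XRN1 (1.004 to 1.13). The FPKM and the reads of CHD8 therefore gave changes of 5.36 and 0.42 log2 for the same library, and its calls rest on FPKM alone. EP400, a SWR1-type remodeller, had 65.0 FPKM in SMG6/XRN1, 165 in UPF1/XRN1 and 83.3 in XRN1, against 73.2 in the control, whereas its reads were 1.67-fold (1.52 to 1.84), 1.49-fold (1.35 to 1.64) and 1.47-fold (1.33 to 1.63) the control in the same libraries. The single high FPKM value in UPF1/XRN1 had no counterpart in reads. SRCAP, the other SWR1-type remodeller, had 7.35 FPKM in SMG6/XRN1, 8.47 in UPF1/XRN1 and 5.74 in XRN1, against 11.5 in the control. Its scaled reads went the opposite way, at 2.01-fold (1.87 to 2.16), 2.001-fold (1.86 to 2.15) and 1.67-fold (1.55 to 1.7995) the control. RCC1, the nucleotide exchanger of Ran, had changes over the control of 0.32 and 0.40 log2 FPKM in SMG6/XRN1 and UPF1/XRN1. Its locus also holds isoforms of SNHG3, a gene of the non-coding host list below, and 95.4% of the locus signal came from RCC1 isoforms. The locus of SRCAP also holds PHKG2, with 84.7% of the signal from SRCAP isoforms.

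**Figure D2:**
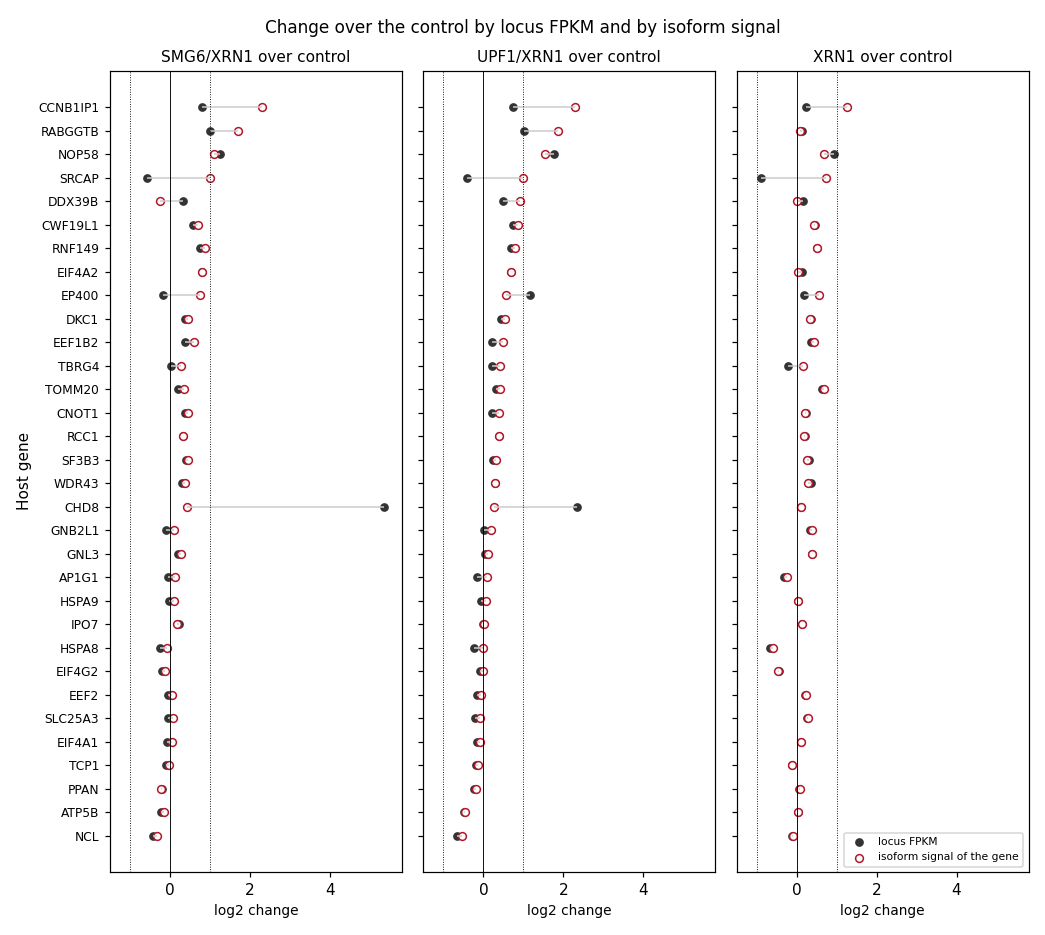
Log2 change over the control of the 32 host genes in SMG6/XRN1, UPF1/XRN1 and XRN1, by locus FPKM (filled) and by the summed isoform signal of the gene (open), with dotted lines at 2-fold. The 2 measures lie close together for most genes and far apart for CHD8 (5.36 and 0.42 in SMG6/XRN1), SRCAP (-0.58 and 1.01) and CCNB1IP1 (0.81 and 2.30).

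The remaining hosts act in trafficking, nuclear import or as ubiquitin ligases. CCNB1IP1, known as HEI10, a ubiquitin ligase of meiotic crossing-over, had 669 FPKM in SMG6/XRN1, 641 in UPF1/XRN1 and 443 in XRN1, against 380 in the control. Its reads showed a wider spread, at 4.92-fold the control in SMG6/XRN1 (95% counting interval 4.77 to 5.08), 4.93-fold in UPF1/XRN1 (4.78 to 5.09) and 2.38-fold in XRN1 (2.30 to 2.46). Both measures put the co-depletions highest and the control lowest. By the spike-in scaled ratios CCNB1IP1 was past 2-fold in all 5 comparisons. Unscaled, its estimated reads were 21774 in SMG6/XRN1 and 11035 in XRN1, just under 2-fold. RABGGTB, the beta subunit of the enzyme that attaches lipid anchors to Rab GTPases, had 268 FPKM in SMG6/XRN1, 274 in UPF1/XRN1 and 146 in XRN1, against 134 in the control. Its locus is merged with that of the neighbouring ACADM and its own isoforms held 8.75% of the signal, and the reads of these isoforms were 3.25-fold the control in SMG6/XRN1 (2.95 to 3.58), 3.68-fold in UPF1/XRN1 (3.35 to 4.05) and 1.07-fold in XRN1 (0.947 to 1.20). The interval in XRN1 includes 1, unlike those of NOP58 and CCNB1IP1. Summed over the whole locus, signal gave a change of 0.80 log2 in UPF1/XRN1 over control, so the call of RABGGTB does not hold on that measure. RNF149, a membrane-bound ubiquitin ligase, had 4.52 FPKM in SMG6/XRN1, 4.24 in UPF1/XRN1 and 3.65 in XRN1, against 2.27 in the control, so the 3 depleted libraries were all above the control. The import receptor IPO7 and the adaptor subunit AP1G1 stayed within 0.33 log2 in all 5 comparisons.

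FPKM and reads gave changes more than 0.5 log2 apart for 2 of the 32 genes in XRN1 over control, 3 in SMG6/XRN1 over XRN1, 5 in UPF1/XRN1 over XRN1, 6 in SMG6/XRN1 over control and 5 in UPF1/XRN1 over control. FPKM depends on how the authors' tool assigned a length to the isoforms of a locus, and the isoform table was scaled to a spike-in. By signal summed per locus the hosts past 2-fold were NOP58, CCNB1IP1 and SRCAP in both co-depletions over the control, and CCNB1IP1 alone in the other 3 comparisons, so NOP58 was the only host called over the control by both measures. Which of the measures is nearer to the amount of mRNA was not tested.

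Within the hosts, single isoforms differed far more than loci. The deposited isoform table marks an isoform as an NMD isoform where its signal in both SMG6/XRN1 and UPF1/XRN1 is above 2 times the control, so the mark comes from the values described here and is not evidence of its own. The 32 genes had 515 isoforms listed, 33 of them without a value. Signal in a library was present for 389, and 98 of these carried the mark (25.2%). Isoforms of 1 gene share reads and are not independent, so no interval is given for this share. The background was 22.7% of all isoforms with signal, and 24.7% in loci with a mean of at least 1 FPKM, so hosts carried the mark about as often as other genes. Of the 98, 35 were at 0 in the control. All hosts but PPAN and SF3B3 had at least 1 marked isoform.

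Marked isoforms held 10.1% of the summed signal of the 32 genes in SMG6/XRN1, 11.7% in UPF1/XRN1 and 4.04% in XRN1, against 1.87% in the control. Over all loci the shares were 11.8%, 13.8%, 7.38% and 3.26% in the same order, so the share in hosts was lower in every library. The share differed widely among hosts. In SMG6/XRN1 it was above 10% in 12 of the 32 genes and in UPF1/XRN1 in 13, and the median over genes was 3.92% in SMG6/XRN1, 4.87% in UPF1/XRN1 and 2.13% in XRN1, against 0.877% in the control.

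**Figure D3:**
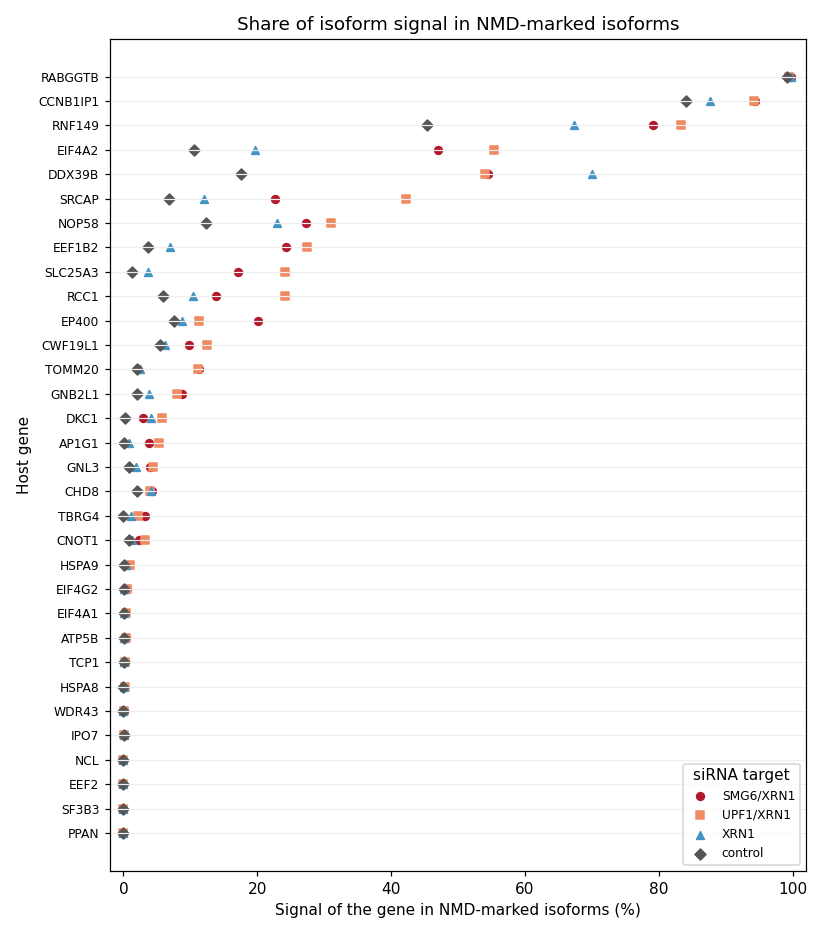
Percent of the isoform signal of each host gene that was in NMD-marked isoforms, 1 point per library (SMG6/XRN1, UPF1/XRN1, XRN1 and control). RABGGTB is above 99% in all 4 libraries, EIF4A2 reaches 47.0% in SMG6/XRN1 and 55.4% in UPF1/XRN1 against 10.5% in the control, and the lowest genes lie near 0%. The shares cover isoforms with values only, 5 of 16 listed for RABGGTB and 25 of 31 for EIF4A2.

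EIF4A2, the translation host with the highest change at the locus over the control, had marked isoforms well above the control. The rule of the mark already puts them past 2-fold in both co-depletions, so their contrast with the other isoforms is in part set by it. Its marked isoforms had a signal of 63336 in SMG6/XRN1, 69219 in UPF1/XRN1 and 15575 in XRN1, against 8112 in the control, and the others 71401, 55775, 63840 and 69162. The marked group was 7.81-fold the control in SMG6/XRN1 (95% counting interval 7.46 to 8.18) and 8.53-fold in UPF1/XRN1 (8.16 to 8.93), while the others were 1.03-fold (1.01 to 1.05) and 0.806-fold (0.789 to 0.824). The marked share was 47.0% in SMG6/XRN1 and 55.4% in UPF1/XRN1, against 19.6% in XRN1 and 10.5% in the control. The leading one, the partly matching isoform TCONS_00140894, had 30622 in SMG6/XRN1, 32930 in UPF1/XRN1 and 5511 in XRN1, against 2508 in the control. The most abundant isoform of the gene, TCONS_00140901, had 35716, 18025, 38767 and 41294 and was lowest in UPF1/XRN1.

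EEF1B2 was above the control in marked and in other isoforms in both co-depletions. Here too the higher ratios of the marked ones are in part set by the rule of the mark. Its marked isoforms had a signal of 41667 in SMG6/XRN1, 43759 in UPF1/XRN1 and 10695 in XRN1, against 4109 in the control. They were 10.1-fold the control in SMG6/XRN1 (9.52 to 10.8) and 10.7-fold in UPF1/XRN1 (10.002 to 11.3), and the other isoforms 1.19-fold (1.17 to 1.21) and 1.06-fold (1.04 to 1.07). The main mRNA isoform, ENST00000392221, had 109193, 96481, 115344 and 85127 in SMG6/XRN1, UPF1/XRN1, XRN1 and control.

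CCNB1IP1 differed from both, because its most abundant mRNA was itself marked. ENST00000358932, of protein-coding type, had a signal of 69159 in SMG6/XRN1, 69209 in UPF1/XRN1 and 35789 in XRN1, against 14522 in the control, and was 4.76-fold the control in SMG6/XRN1 (4.60 to 4.94). ENST00000556854, annotated as an NMD transcript, had 11724, 11238 and 2294 against 893, which is 13.1-fold in SMG6/XRN1 (11.5 to 15.1) and 12.6-fold in UPF1/XRN1 (10.99 to 14.4). Marked isoforms held 94.4% of the signal of the gene in SMG6/XRN1, 94.3% in UPF1/XRN1 and 87.6% in XRN1, and 84.1% in the control. In GENCODE 29 the protein-coding transcript has 4 exons before its start codon, and its stop lies in the last exon.

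NOP58 was above the control in marked and in other isoforms. That the marked ones had the higher ratios is in part set by the rule of the mark. Its marked isoforms had 23673 in SMG6/XRN1, 36590 in UPF1/XRN1 and 15084 in XRN1, against 5052 in the control, and the others had 63181, 81314 and 50655, against 35730. The marked isoforms were 4.69-fold the control in SMG6/XRN1 (4.41 to 4.98) and 7.24-fold in UPF1/XRN1 (6.8 to 7.7). The other isoforms were 1.77-fold the control in SMG6/XRN1 (1.72 to 1.81) and 2.28-fold in UPF1/XRN1 (2.22 to 2.33), the highest ratios of unmarked isoforms over the control of any host in both co-depletions. Of the 16 listed isoforms of RABGGTB only 5 had values. Nearly all the signal of these 5 was in marked isoforms in every library. The leading isoform ENST00000370826 had 6447 in SMG6/XRN1, 7220 in UPF1/XRN1 and 2098 in XRN1, against 2045 in the control. That isoform is annotated as protein-coding, with its stop in the last exon.

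SLC25A3 and TOMM20 are 2 hosts with marked isoforms at loci that were not called. The rule of the mark puts the marked isoforms of every such host past 2-fold over the control, so only the sizes are described. For SLC25A3 the marked isoforms had 13196 in SMG6/XRN1, 16638 in UPF1/XRN1 and 3214 in XRN1, against 927 in the control, and were 14.2-fold (12.5 to 16.3) and 17.9-fold (15.7 to 20.5) the control in the co-depletions. Its other isoforms had 63804, 52298 and 84956 against 71999, below the control in both co-depletions. For TOMM20 the marked isoform TCONS_00018193 had 12277 in SMG6/XRN1, 12653 in UPF1/XRN1 and 3329 in XRN1, against 1785 in the control, and the main isoform ENST00000366607 had 97145, 100371 and 132477 against 83471. Relative to the XRN1 library the marked isoform was higher in both co-depletions, by 3.69-fold and 3.80-fold, and the main one lower, at 0.733 and 0.758. Both genes were singled out after their values were seen.

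RNF149, the host with the lowest level, had most of its signal in marked isoforms in the 3 depleted libraries. They had 3142 in SMG6/XRN1, 3099 in UPF1/XRN1 and 2055 in XRN1, against 980 in the control, and the others had 833, 621 and 999 against 1181. The mRNA isoform ENST00000295317 was 0.697-fold the control in SMG6/XRN1 (0.579 to 0.837) and 0.522-fold in UPF1/XRN1 (0.429 to 0.632). This annotated mRNA was thus below the control in both co-depletions, where the locus FPKM was above it. In SRCAP the leading marked isoform TCONS_00071613 had 1313 in SMG6/XRN1, 2926 in UPF1/XRN1 and 544 in XRN1, against 100 in the control, while the most abundant, TCONS_00071616, had 5835, 3829, 4506 and 3445. In DDX39B the marked isoform ENST00000474961, of retained-intron type, had 934, 2089 and 1446 against 358, so the XRN1 library was above SMG6/XRN1. In EP400 the marked isoform ENST00000333577 had 897 in SMG6/XRN1, 450 in UPF1/XRN1 and 341 in XRN1, against 200 in the control, and the leading ENST00000332482 had 1911, 2350, 3202 and 1651. In CHD8 marked isoforms held 4.30% of the signal in SMG6/XRN1, and its leading isoform ENST00000430710 had 7002, 4952, 4431 and 4094.

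**Figure D4:**
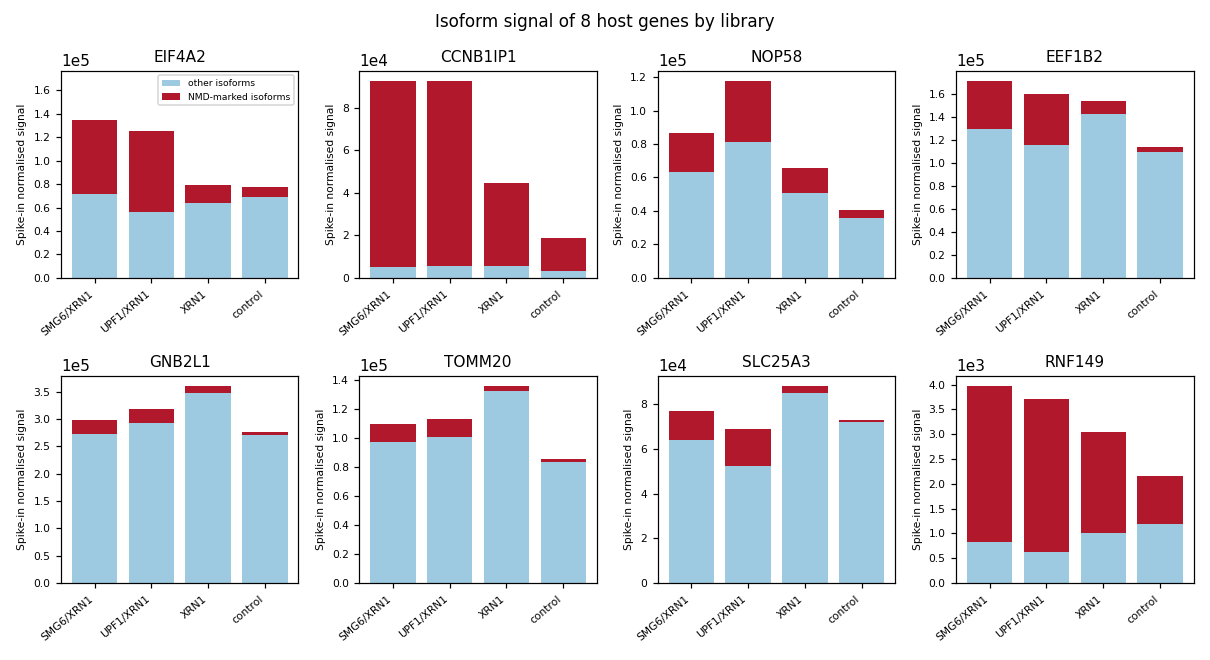
Spike-in normalised isoform signal of 8 host genes in SMG6/XRN1, UPF1/XRN1, XRN1 and control, split into NMD-marked isoforms (red) and the other isoforms (blue), each panel with its own scale. The red part is larger in both co-depletions than in the control in all 8, by the rule of the mark, and the blue part of EIF4A2 is 71401, 55775, 63840 and 69162 in the same order.

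Over the 32 genes the unmarked isoforms had a median ratio to the control of 1.10 in SMG6/XRN1, 1.05 in UPF1/XRN1 and 1.10 in XRN1. The mark had taken isoforms above 2 times the control in both co-depletions out of this group. Its ratios over the control are therefore in part set by that rule and are not evidence of their own. In SMG6/XRN1 none was 2-fold higher and DDX39B was 2-fold lower, and in UPF1/XRN1 NOP58 was 2-fold higher, as was RABGGTB from a handful of reads. In XRN1 over control DDX39B and RABGGTB were 2-fold lower, RABGGTB again on few reads. The DDX39B values cover only isoforms with its symbol alone, 5.71% of the signal of its locus. Summed over that locus, signal was higher than the control, by 0.65 log2 in SMG6/XRN1 and 0.28 in XRN1.

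The annotated transcript type does not use the libraries, so it offers a view of the isoforms apart from the mark. Among isoforms that matched a reference transcript in full and had a mean of at least 10 reads, 19 host isoforms were of NMD type. Of these 12 were at least 2-fold higher in SMG6/XRN1 over control (63.2%, against 56.2% of 3370 such isoforms of all loci), and 12 in UPF1/XRN1 over control (63.2%, against 59.3%). Their median log2 changes were 1.66 and 2.17, beside 1.26 and 1.44 over all loci. Over the XRN1 library 8 were higher in SMG6/XRN1 (42.1%, against 39.4%) and 9 in UPF1/XRN1 (47.4%, against 44.7%), and 6 were higher in XRN1 over control (31.6%, against 33.5%). Host isoforms of NMD type were near the background of their type in all 5.

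Of 92 host isoforms of protein-coding type, 12 were higher in SMG6/XRN1 over control (13.0%, against 23.8% of all such isoforms) and 20 in UPF1/XRN1 over control (21.7%, against 23.3%). Of 30 of retained-intron type, 10 were higher in each co-depletion (33.3%, against 41.2% in SMG6/XRN1 and 43.3% in UPF1/XRN1). Of 17 of processed-transcript type, 7 were higher in each (41.2%, against 43.7% and 44.9%). In these comparisons over the control the share was highest for NMD type and lowest for protein-coding type, in hosts and over all loci. In UPF1/XRN1 over XRN1 the lowest share in hosts was that of another type, as 23 of 92 of protein-coding type (25%, against 17.1%) and 6 of 30 of retained-intron type (20%, against 31.3%) were higher.

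**Figure D5:**
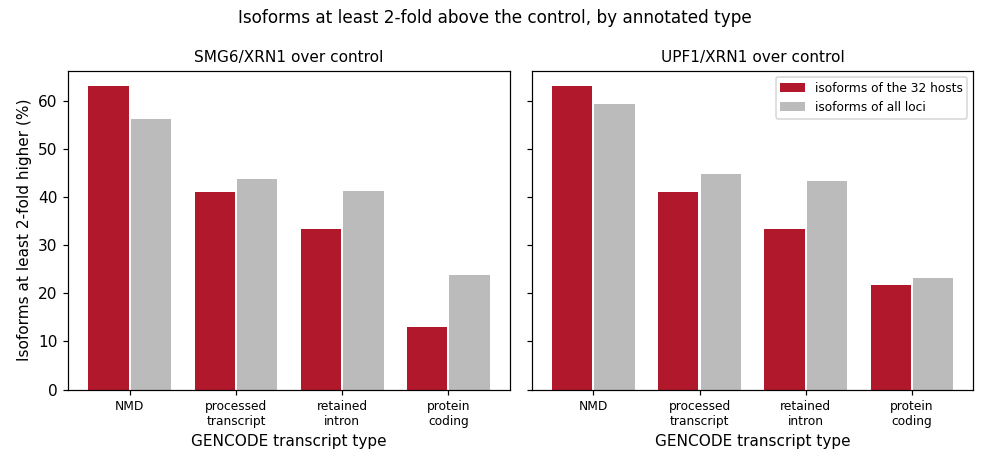
Percent of isoforms at least 2-fold above the control in SMG6/XRN1 (left) and UPF1/XRN1 (right), by GENCODE transcript type, for the 32 hosts (red) and for all loci (grey), among full matches with a mean of at least 10 reads. NMD-type isoforms are the highest bars (63.2% in hosts on both sides) and protein-coding ones the lowest (13.0% and 21.7% in hosts).

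GENCODE gives the NMD type by the position of the stop codon, so the next count restates the annotation. In GENCODE 29 all 54 host transcripts of NMD type with an annotated stop end their frame more than 50 bases before the last exon junction, the distance at which a stop is usually read as premature, and 1 of 112 of protein-coding type does. The last 24 bases of the reading frame are given with the stop in capitals, first for 4 host transcripts that were higher in both co-depletions and chosen after their values were seen. The stop of CCNB1IP1 ENST00000556854 is at chr14:20315607-20315609 (minus strand), 456 bases before the last junction. That of SLC25A3 ENST00000551123 is at chr12:98595588-98595590 (plus), 717 bases before it. That of NOP58 ENST00000426814 is at chr2:202278241-202278243 (plus), 208 bases before it, and that of CNOT1 ENST00000567188 at chr16:58528091-58528093 (minus), 767 bases before it.
CCNB1IP1 ENST00000556854: ttctggacatatcagtatttccttTGA
SLC25A3 ENST00000551123: tttgcatgctggactagagcatatTGA
NOP58 ENST00000426814: gttttccccatgtgtgaggagaggTGA
CNOT1 ENST00000567188: cctaatctaaagagtcttactctgTGA
The SLC25A3 isoform had a signal of 12436 in SMG6/XRN1, 15508 in UPF1/XRN1 and 2842 in XRN1, against 723 in the control, 17.2-fold (14.8 to 19.99) and 21.4-fold (18.5 to 24.9) in the co-depletions. The NOP58 isoform had 1560, 3228 and 364 against 119, highest in UPF1/XRN1, and the CNOT1 isoform had 1534, 1967 and 672 against 432. In these 3 the XRN1 library lay between the control and both co-depletions.

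A premature stop by this rule did not go with a higher signal in every case. GNB2L1 ENST00000504325 ends at chr5:181241574-181241576 (minus strand), 541 bases before the last junction, and EEF1B2 ENST00000455150 at chr2:206161357-206161359 (plus), 306 bases before it.
GNB2L1 ENST00000504325: tgtgctgagtgtggccttctcctcTGA
EEF1B2 ENST00000455150: aggaaaaggccagcctgccaggagTGA
The GNB2L1 isoform had 40323 in SMG6/XRN1, 38721 in UPF1/XRN1 and 48224 in XRN1, against 44955 in the control, lower in both co-depletions. The EEF1B2 isoform had 4771, 1773 and 9100 against 12578, and was 0.379-fold the control in SMG6/XRN1 (0.354 to 0.406) and 0.141-fold in UPF1/XRN1 (0.128 to 0.155). Reads of overlapping isoforms were divided by the authors' assembly, and whether an isoform that shares most of its exons with the main mRNA was given reads of that mRNA was not tested.

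The 32 genes had lower medians over the control than the non-coding hosts and than a further 12 protein-coding hosts, but not than the ribosomal protein hosts. All these lists were drawn up with earlier results of these data known, and TAF1D and NOP56 were placed in the list of 12, so the contrast with it was in part fixed by the choice. The 16 measured non-coding hosts had medians of 1.94 log2 FPKM in SMG6/XRN1 over control and 2.24 in UPF1/XRN1 over control, with 10 and 11 of them called higher, against 0.19 and 0.21 with 2 and 4 of 32 for the protein-coding hosts here. The 25 ribosomal protein hosts had medians of 0.07 and -0.19 in the same comparisons and none called. A further 12 protein-coding hosts outside both lists had medians of 0.68 and 0.73, with 4 and 5 called, led by TAF1D (2.94 and 2.78). Of 40 paralogs and partners of the hosts 39 were measured, with medians of -0.04 and -0.14 and 3 called higher in each, HSPA1A and HSPA1B at their shared locus and DDX39A, the paralog of DDX39B (1.12 and 1.24 log2). Of the 38 of these that could be looked up, 3 hold a snoRNA too. Differences between these lists could not be tested with 1 library per group.

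By family of snoRNA, the 16 hosts of box C/D entries had medians of 0.09 log2 FPKM in SMG6/XRN1 over control and 0.03 in UPF1/XRN1 over control. The 11 hosts of box H/ACA entries had 0.20 and 0.21, and the 5 hosts of both 0.37 and 0.22. Each family included genes above and below 0 in both comparisons.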

How the data were processed

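Cytoplasmic poly(A)+ RNA-seq libraries of 4 siRNA groups, 1 library each, were grouped by their labels. Per the submitters' processing notes, the tools were Cufflinks 2.0.2, TopHat2 2.0.6, Bowtie 0.12.7 and CASAVA 1.8.2 and the genome build was hg19, with no role named for any. The deposited gene values are FPKM per assembled locus. The deposited isoform values are a signal, which the authors name spike-in normalised, and the sources used here give neither the spike-in and its factor nor the strand setting of the counting, so overlapping genes and near-identical copies are uncertain.

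Low isoform signals were whole multiples of 1 step per library, the value of 1 read (4.25, 3.72, 4.05 and 3.85 in SMG6/XRN1, UPF1/XRN1, XRN1 and control). Of loci with at most 20 reads, 84.6% to 86.7% came out whole within 0.01. Signals divided by the step gave estimated reads. Ratios of reads carry exact conditional binomial 95% intervals that cover counting error only. Both were multiplied by the ratio of the steps of the libraries compared, so they are ratios of spike-in normalised signal and not of unscaled reads. No count test was run, since reads shared between isoforms are not whole.

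Changes are log2((a + 1)/(b + 1)) of FPKM, which understates low genes, for loci with a mean of at least 1 FPKM, called at 2-fold. The authors' NMD mark was recomputed from the signals with 0 mismatches. GENCODE 29 (GRCh38) gave transcript types, stops and snoRNAs by symbol and transcript, RefSeq (GRCh38.p14) the starts, and no coordinate of the hg19 files was used. Python 3.11.15, pandas 2.3.3, numpy 2.4.6, scipy 1.17.1 and matplotlib 3.10.9 were used, and the steps were tested on simulated data.

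The members and the gene lists were chosen with earlier results of these data known. Genes described in every library were those at least 2-fold changed in any comparison, the 8 with the largest change and the 8 with the largest share of signal in marked isoforms (CHD8, NOP58, EP400, RABGGTB, SRCAP, CCNB1IP1, EIF4A2, RNF149, EEF1B2 and DDX39B), up to 2 examples of each role, and XRN1, SMG6 and UPF1. Other genes with values, among them NCL, HSPA8, CWF19L1 and GNB2L1, and single transcripts shown with their sequence, were chosen after their values were seen. The stop of 1 further host transcript is not reported here.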

Additional observations from a re-analysis of the deposited data

How the results depend on the processing

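No paired analysis was possible because each group is 1 library with no replicate. Other pseudocounts, filters and locus choices left the direction of the host medians and the counts of called hosts within 1.5 times as reported, except that a mean of at least 5 FPKM gave a median of -0.0084 in UPF1/XRN1 over XRN1, turned in direction. Centring each comparison on its median locus (a shift of 0.14 log2 in XRN1 over control, 0.12 in SMG6/XRN1 over XRN1, 0.02 in UPF1/XRN1 over XRN1, 0.25 in SMG6/XRN1 over control and 0.15 in UPF1/XRN1 over control) gave 1 lower host (SRCAP) and a median of 0.0270 in XRN1 over control, a median of -0.0180, turned in direction, in SMG6/XRN1 over XRN1, 1 higher host (CHD8) and a median of -0.0590, turned in direction, in SMG6/XRN1 over control, and a median of 0.0608 in UPF1/XRN1 over control. NOP58 in SMG6/XRN1 over control was then 0.99. Isoform signal summed per locus in place of FPKM gave 1 higher host (CCNB1IP1) in XRN1 over control and a median of 0.35 in SMG6/XRN1 over control, and CHD8, EP400 and RABGGTB were no longer called, while CCNB1IP1 and SRCAP were called in both co-depletions over the control. With 0.1 as pseudocount RABGGTB passed 2-fold in SMG6/XRN1 over control. Centred, RABGGTB was 0.87 in UPF1/XRN1 over control. A 1.5-fold threshold gave 2 higher and 2 lower hosts in XRN1 over control, 4 higher in SMG6/XRN1 over XRN1, 4 higher in UPF1/XRN1 over XRN1, 6 higher in SMG6/XRN1 over control, and 8 higher and 1 lower in UPF1/XRN1 over control. With full matches only, 58 host isoforms carried the NMD mark and held 6.30% of the signal in SMG6/XRN1 and 7.07% in UPF1/XRN1. Without isoforms at 0 in the control there were 63, with 9.80% and 11.5%. Apart from the effect of fewer isoforms or a lower threshold, the cause was not tested. With 1 library per group, differences between groups cannot be separated from differences between libraries, and reads of isoforms near 0 in the control limit their ratios.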
